A study of Mus musculus with 6 samples.

Results

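Of the 9608 mouse genes that the MOE430B array named alone, 5801 had no probe set of their own on its partner array, MOE430A, and these 5801 genes are described here. They were chosen by annotation only: every probe set of MOE430B that was assigned to exactly 1 gene was taken, and its gene was kept if no probe set of MOE430A was assigned to that gene alone. The 2 arrays together named 18194 genes in this way. The 5801 genes were read by 8950 probe sets, with 1 probe set for 3786 genes and up to 8 for others, and 56 of them also occurred in MOE430A probe sets that name several genes.

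The cells were 10T1/2, an established fibroblast line from mouse embryos, known for its capacity to become muscle, fat or cartilage in culture. They were grown in DMEM with 10% FBS without further treatment and harvested at 80% confluency, and total RNA from samples numbered 1, 4 and 5 was hybridised to 1 MOE430B array each. The labels say that the best 3 samples were used and give the purpose, a fibroblast profile to be subtracted from those of stem cells, and they name neither a contrast nor separate cultures. With 1 array per sample, a difference between samples cannot be told apart from a difference between their arrays, and no single gene was tested.

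The MOE430 pair splits the mouse transcriptome: the A array carries mainly well-characterised genes, and the B array adds transcripts that were known largely from expressed sequence tags when it was designed. The genes found on B alone are therefore a mixture of regulators with long names in other fields, members of large families, noncoding RNAs and genes that still carry a clone name. MAS5, the Affymetrix algorithm behind the deposited values, gives 1 linear signal in arbitrary units per probe set, scaled so that arrays have the same trimmed mean.

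The arrays were similar in scale, with median signals of 856 to 921 over all their probe sets. A background limit was set on each array at the 95th percentile of 237 probe sets for 181 genes restricted to other tissues, such as chemosensory receptors, lens and germ cell genes. It lay at 3515 in sample 1, 3002 in sample 4 and 3254 in sample 5. A gene is called detected when a probe set of it exceeded the limit on 3 of 3 arrays, and 6 of the 181 restricted genes (3.31%) did so. The control transcripts with probes at both ends gave the highest 3' over 5' ratio in sample 1. For Gapdh it was 23.4 there against 14 in sample 4 and 11.5 in sample 5, and for beta-actin it was 20.2 against 8.23 and 10.8. On MOE430A, 9 of the 12 measured fibroblast markers were above that design's limits, among them Col1a2 and Vim, while Thy1, Twist1 and Fap were not. All 4 endothelial and all 4 epithelial markers were below the limit on at least 1 array, Csf1r was the 1 leukocyte marker of 4 above it, at 1165 to 1222, and Sox10 the 1 neural marker of 4, at 1186 to 1517, against limits of 802 to 1037.

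Of the 5801 genes, 832 (14.3%) were detected, against 15.6% of all MOE430B genes and 663 of the 3807 genes that MOE430A also names (17.4%). The difference was -3.07 percentage points. Array by array, the share of B-only genes above the limit minus that of the other genes was -4.26 points in sample 1, -1.39 points in sample 4 and -2.46 points in sample 5. The sign was the same on 3 of 3 arrays, with a mean of -2.71 points ± 1.45 (SD, n = 3) and p = 0.25 in a two-sided exact sign-flip permutation test, the smallest p that 3 arrays allow. When probe sets ending in _s_at or _x_at, which can match several transcripts, were left out, the difference shrank to -0.26 points (exact permutation p = 0.75). Signals of the detected genes were also lower, with a median of 6709 against 8368.

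What kind of gene it was went with whether it was detected. Of 4310 protein-coding genes, 781 (18.1%) were detected, with a median signal over all of them of 1425. Long noncoding RNAs (lncRNAs), transcripts without a long reading frame that are often restricted to 1 tissue, made up 1233 of the 5801 genes, and 40 of them (3.24%) were detected, close to the 3.31% of the restricted genes that set the limit. Their median signal was 707. Transcribed pseudogenes reached 4 of 81 (4.94%). Among the 1857 genes known by a clone, a predicted-gene or a family-and-number name, 97 (5.22%) were detected. The number of probe sets moved with detection as well: 8.003% of the genes with 1 probe set were detected, 20.5% of those with 2, 32.9% of those with 3 and 42.3% of those with 4 or more. The part that the chance of having any 1 probe set above the limit plays in this order was not tested.

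**Figure D1:**
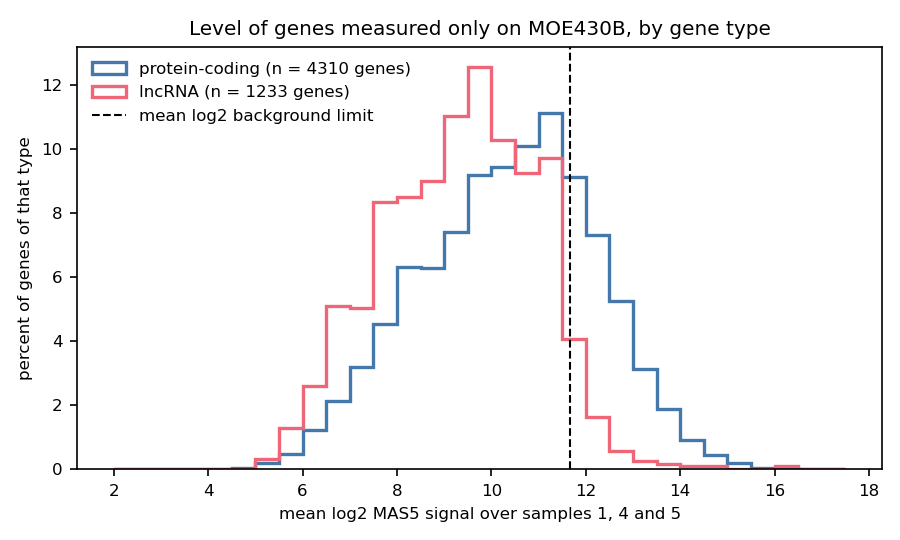
Mean log2 MAS5 signal over samples 1, 4 and 5 (x axis, unitless) against the percent of genes of each type (y axis) for the 4310 protein-coding and 1233 lncRNA genes found on MOE430B alone. Most genes of both types lie left of the dashed mean background limit, and the protein-coding curve reaches further to the right.

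The brightest transcript of all was itself an lncRNA. 2410006H16Rik gave 68004 in sample 1, 33170 in sample 4 and 157160 in sample 5, a 4.74-fold range. Glrx5, a mitochondrial glutaredoxin needed for iron-sulphur cluster assembly, followed with 44998, 66159 and 95806 in samples 1, 4 and 5. Agpat4, an acyltransferase of phospholipid synthesis, gave 74115, 52894 and 50369, and samples 4 and 5 were close together. The bright probe set of Agpat4 ends in _x_at. A second probe set was far dimmer, at 5337, 4424 and 4017, and kept the order.

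Several of the brightest genes act in the cytoskeleton, in adhesion or at the plasma membrane. Myh10, the heavy chain of non-muscle myosin IIB, gave 53760, 46960 and 34077 in samples 1, 4 and 5. Fat1, an atypical cadherin, varied little, with 34287, 41982 and 32051. Tns3, a tensin that links integrins to actin, gave 30157, 25768 and 40795. Its second probe set, near the limits at 3691, 3985 and 3024, put sample 5 lowest and not highest. Piezo1, a mechanically gated cation channel, was lower in sample 1 (19112) than in samples 4 (39682) and 5 (40554), which hardly differed. Ano6, a calcium-activated scramblase that exposes phosphatidylserine, was the reverse for sample 5, with 54764 and 52597 against 24757. Its second probe set, at 22985, 33775 and 14698, also put sample 5 lowest but sample 4 and not sample 1 highest. Flrt2, a leucine-rich transmembrane protein that binds Unc5 receptors, gave 57988, 18236 and 28394, and each of its 3 probe sets placed sample 1 highest and sample 4 lowest.

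Other bright genes serve protein export, RNA handling and metabolism. Srp72, a subunit of the signal recognition particle, gave 30027, 50755 and 46826, and Hnrnpa0, an RNA-binding protein of the hnRNP family, gave 28913, 39540 and 35550 in samples 1, 4 and 5. Atic, which catalyses the last steps of purine synthesis, stood at 17638, 26959 and 52320, and Washc5, a subunit of the WASH complex that nucleates actin on endosomes, at 25036, 28371 and 49441. Zc3hav1, an antiviral zinc finger protein that binds CpG-rich RNA, gave 21472, 29250 and 51053. In these last 3 genes sample 1 was lowest and sample 5 highest by the probe sets quoted. A second, far dimmer probe set of Zc3hav1 gave 1582, 4165 and 3540, with sample 1 lowest but sample 4 highest. Fndc3b, a fibronectin type III domain protein, was among the least variable of the 20, with 30321, 36177 and 33452, and its second probe set gave the same order.

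**Figure D2:**
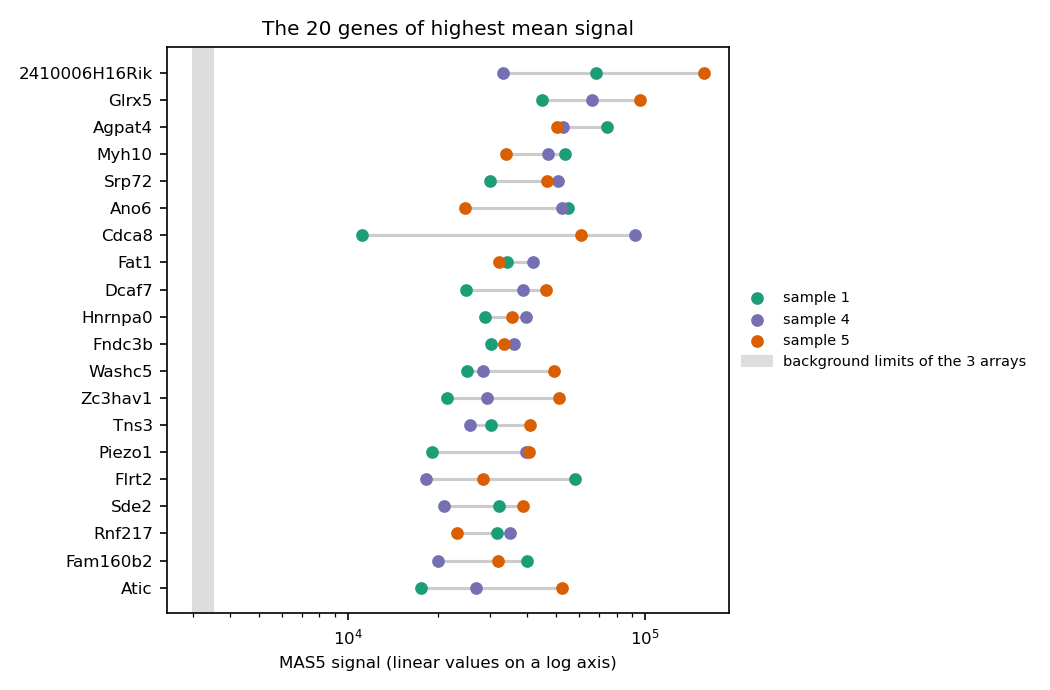
MAS5 signal in arbitrary units (log x axis) in samples 1, 4 and 5 of the 20 B-only genes with the highest mean log2 signal (y axis); the grey band spans the background limits of the 3 arrays. All points lie to the right of the band, 2410006H16Rik reaches 157160 in sample 5, and Cdca8 in sample 1 (11142) is the lowest point.

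Most detected genes varied by less than 2-fold between the samples. Detection needed a signal above the limit on 3 of 3 arrays, which leaves out genes that fall below it in 1 sample. For the ranges, signals below the highest of the 3 limits were raised to it, which narrows them. Over the 832 detected genes the SD of the log2 signal had a median of 0.31 (n = 3 samples), and the range between the highest and lowest sample had a median of 1.496-fold and a 90th percentile of 2.50-fold. The range stayed under 2-fold in 677 of them (81.4%), against 519 of the 663 other detected genes (78.3%). As a measure of array error, 84 probe sets above the limits that both designs carry were compared between the designs. The median log2 ratio of each design was first subtracted, which removes a shift common to a whole array. After that, their sample-to-sample ratios differed by a median of 1.16-fold to 1.23-fold, with a 95th percentile of 1.61-fold to 1.88-fold. Many of the ranges in the B-only genes are of that size, though they were taken over 3 samples and without this subtraction. In 86 genes with a second detected probe set, the deviations of a sample from the mean of the 3 correlated between the 2 probe sets at r = 0.46 in sample 1, 0.47 in sample 4 and 0.63 in sample 5, across genes that share the arrays. The sign was the same for 47, 58 and 63 of the 86.

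The 10 steadiest genes among the brighter detected genes varied within the array error above. Btbd7, a BTB-domain protein, gave 19550, 18897 and 19034 in samples 1, 4 and 5. Pisd, the mitochondrial enzyme that makes phosphatidylethanolamine, gave 26817, 24923 and 28307. Sh3pxd2b (Tks4), an adaptor of podosomes and invadopodia, gave 23488, 22521 and 20283. Their ranges were 1.03-fold, 1.14-fold and 1.16-fold. The clone-named 2310022B05Rik (17367, 16346 and 16984) and the RNA-associated Prrc2b (12947, 11824 and 12745) lay between them, at 1.06-fold and 1.09-fold.

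Detection differed between functional groups. The 5801 genes were read through 36 lists drawn up by gene symbol, and the detected share was above the 15.6% of all MOE430B genes in 19 lists. That 15.6% includes lncRNAs and clone-named genes, and among protein-coding B-only genes alone the share was 18.1%. The part that gene type plays in the shares of the lists was not tested. The genes that modify chromatin stood first, with 29 of 63 (46.03%), against 50 of 152 (32.9%) for the same list over all MOE430B genes. Ehmt1, which dimethylates histone H3 lysine 9, gave 17172, 14728 and 13439 in samples 1, 4 and 5, and Kdm4a, a demethylase of the same residue, gave 10725, 17978 and 11189. The acetyltransferase Ep300 was dimmer, at 3864, 5122 and 4568, and the H3K36 methyltransferase Setd2 gave 4385, 5315 and 6031. The autophagy and lysosome list reached 12 of 30 (40.0%), against 19 of 83 (22.9%) for the same list over all MOE430B genes. Its detected members were mostly Snx and Vps genes, and none of its Atg genes was detected. Snx33, a sorting nexin, gave 11245, 11417 and 8288. Membrane traffic genes reached 25 of 68 (36.8%), and RNA-binding and decay genes 25 of 73 (34.2%), with Ago1, the Argonaute that carries small RNAs, at 20699, 24979 and 15760. Mitochondrial genes reached 17 of 56 (30.4%). They included Slc25a1, the citrate carrier, at 18618, 27039 and 24456, and the pore of the calcium uniporter, Mcu, at 10671, 12308 and 9657. Ubiquitin ligases and deubiquitinases had 25.6% of their members detected.

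At the other end were families of specialised cells. Genes of the motile cilium and sperm tail, a structure fibroblasts do not build, had 1 of 89 detected (1.12%), the calcium-binding Efcab1 at 6311, 7329 and 6503 in samples 1, 4 and 5. Of the 89, 13 also belong to the restricted genes that set the limit, so the low share is in part fixed by that choice. Genes of the centrosome and of the primary cilium, the single sensory cilium that fibroblasts do form, had 10 of 48 (20.8%). Among those were the transition zone protein Cc2d2a at 14241, 17936 and 6884, with sample 5 lowest, the retrograde transport subunit Ttc21b at 7238, 11422 and 10867, and Ift43, Ift52, Wdr35 and Traf3ip1. None of the 14 homeobox genes, 13 muscle, fat, cartilage and bone lineage genes or 9 stem cell genes was detected. The last include Prdm14, L1td1 and Zscan10. They were taken by symbol and also hold Zscan18, Zscan20 and Zscan29, and the Zscan genes are counted in the zinc finger list as well. Prdm16 is in both the lineage and the stem cell list. Being below this limit does not show absence, and these 3 lists are small: the corresponding lists over all MOE430B genes had 4 of 53, 4 of 46 and 7 of 36 detected. Cytokine and innate immunity genes had 3 of 42 detected, the interferon-induced Ifi27 and Samd9l and the kinase Irak2.

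**Figure D3:**
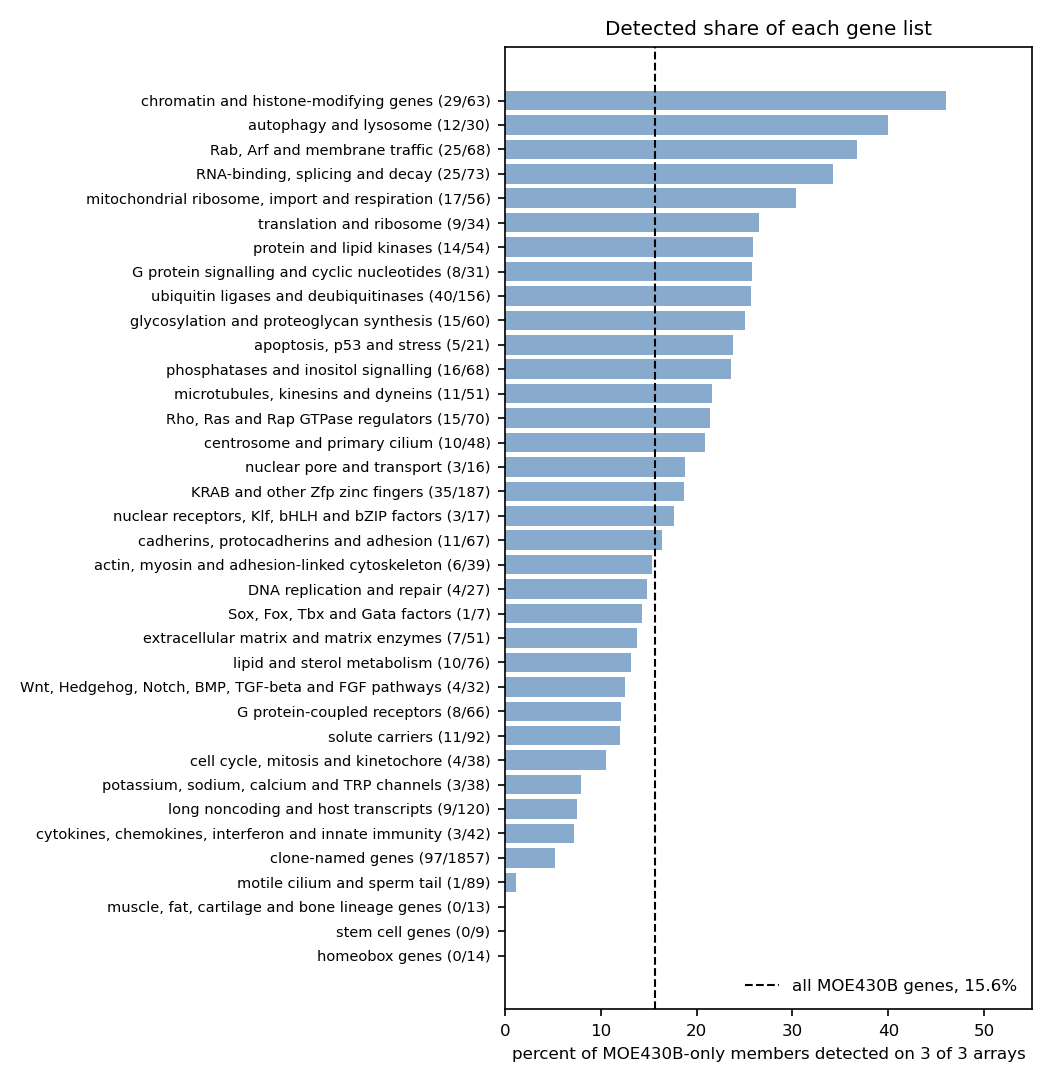
Percent of the B-only members of each of 36 gene lists that exceeded the background limit on 3 of 3 arrays (x axis), with the number detected over the number measured after each list name (y axis). The dashed line marks the 15.6% of all MOE430B genes; chromatin genes reach 46.03% and the motile cilium list 1.12%.

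Receptors and matrix genes were detected about as often as all B-only genes (14.3%). Of 66 G protein-coupled receptors 8 were detected (12.1%). Of the 66, 7 also belong to the restricted genes that set the limit, so this share is in part fixed by that choice. S1pr2, a receptor for sphingosine 1-phosphate, gave 28533, 22532 and 21345 in samples 1, 4 and 5, with sample 4 and not sample 1 highest in a second probe set (6797, 8694 and 7073). The latrophilin Adgrl2 gave 25535, 30049 and 14329. Of 51 extracellular matrix genes 7 were detected (13.7%). Ccbe1, a secreted protein that promotes maturation of the lymphatic growth factor VEGF-C, gave 11192, 16528 and 38132, highest in sample 5. Emilin2, an elastin-associated glycoprotein, and Adamtsl3, an ADAMTS-like matrix protein, were both highest in sample 4, with 9368, 19536 and 9243 and with 9168, 22738 and 7520.

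To compare samples, genes were kept if their mean log2 signal exceeded the mean limit, which left 1162 of the 5801, and signals below the highest of the 3 limits were raised to it, so that folds of dim genes are understated. A range of 4-fold or more was found in 22 of the 1162 genes (1.89%), against 2.35% of the 2045 kept MOE430B genes. Sample 5 was the highest in 16 of the 22 and sample 1 the lowest in 13. The same split was not counted over all kept MOE430B genes. Without sample 5 the count was 3, without sample 1 it was 10 and without sample 4 it was 18. Ranges over 2 samples are mostly narrower by construction. Genes at least 2-fold above or below both other samples were counted next. Sample 5 was above in 48 genes (4.13%, against 3.47% of all kept MOE430B genes) and below in 20 (1.72%, against 2.05%). Sample 1 was above in 10 (0.861%, against 1.42%) and below in 25 (2.15%, against 2.3%). Sample 4 was above in 10 (0.861%, against 0.929%) and below in 4 (0.344%, against 0.489%). All kept genes include the B-only ones; among the 883 others alone, the shares for sample 5 above and sample 1 above were 2.6% and 2.15%, and none of these differences was tested. Between samples 4 and 5 alone, 70 genes were at least 2-fold higher in sample 5 (5.44%, against 5.62% of all genes kept in that comparison) and 48 in sample 4 (3.73%, against 4.22%). Between samples 1 and 5 alone, the counts were 106 higher in sample 5 (9.59%, against 8.97%) and 53 in sample 1 (4.8%, against 6.01%). Between samples 1 and 4 alone, 48 were higher in sample 4 (4.12%, against 4.4%) and 28 in sample 1 (2.4%, against 2.8%).

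**Figure D4:**
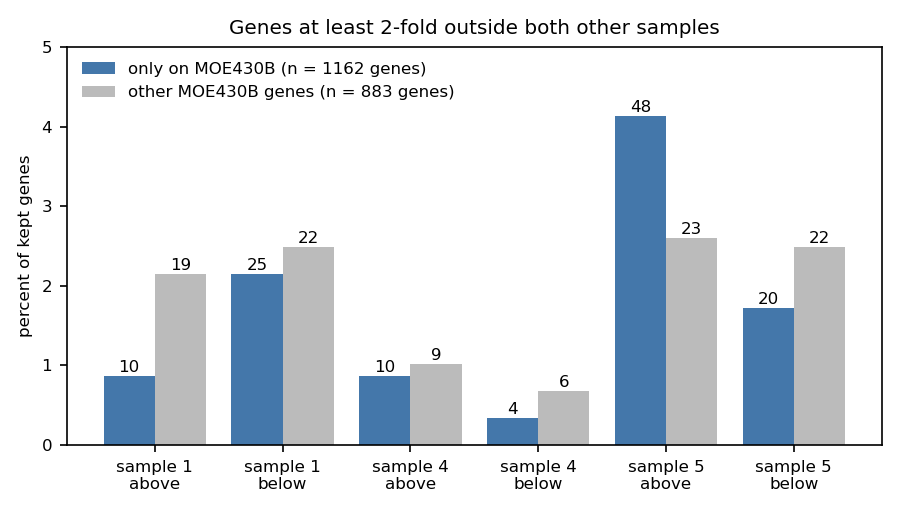
Percent of kept genes (y axis) at least 2-fold above or below both other samples, for each sample and direction (x axis), with the number of genes over each bar. Blue bars are the 1162 B-only genes and grey bars the 883 others; sample 5 above has the tallest blue bar, 48 genes.

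Sample 1 was low in genes of mitosis. Dividing cells assemble kinetochores, which attach chromosomes to spindle microtubules, and the chromosomal passenger complex, which corrects wrong attachments and later guides cytokinesis; transcripts of these parts accumulate in G2 and M phase. Cdca8 (Borealin), a subunit of that complex, gave 11142 in sample 1, 92550 in sample 4 and 60592 in sample 5, the widest range of the kept genes at 8.31-fold. Its other 2 probe sets, below the limit in sample 1, gave 1284, 32145 and 19136, and 127, 4161 and 2180, so that all 3 put sample 1 lowest and sample 4 highest. Arhgap11a, a RhoA GTPase-activating protein of cell division, gave 2766, 25952 and 16367. Sgo2a (shugoshin 2), which protects centromeric cohesin, gave 2884, 13182 and 8292. In both, sample 1 was below its limit and the other samples well above theirs. Kif18b, a kinesin that shortens astral microtubules, was above the limit throughout with 5149, 10222 and 9416. Atad2, a bromodomain ATPase linked to replication, gave 4660, 14424 and 17154 and, like Fbxo5 and Gins2, was chosen after its values were seen. Fbxo5 (Emi1), an inhibitor of the anaphase-promoting complex, gave 1027, 10143 and 7687, and Gins2, a subunit of the replicative helicase, 1381, 6310 and 8655.

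Of the 38 cell cycle, mitosis and kinetochore genes found on B alone, 4 were detected on 3 of 3 arrays (10.5%), and 15 were when sample 1 was left out, a change that raised the share of all MOE430B genes from 15.6% to 19% and that of the B-only genes to 18.1%. The mean filter kept 13. Of these, 9 were below the limit in sample 1 and none in samples 4 or 5, so they passed the filter through those samples and the direction below is in part fixed by it; over all 1162 kept genes, 205 were below the limit in sample 1. In none of the 13 was sample 1 above the mean of the other samples, whereas it was so in 43.7% of all kept MOE430B genes. The median of sample 1 minus the mean of the others was -1.65 on the log2 scale for the 13 and -0.08 for all kept genes. Sample 4 was highest in 10 of them, for example Depdc1b (1912, 11661 and 5984), Ckap2l (2153, 7856 and 5825), Cdca2 (1326, 7540 and 5472) and Kif20b (1463, 6429 and 4548), and sample 5 in the other 3. The 3 genes at least 2-fold below both others in sample 1 were Cdca8, Arhgap11a and Sgo2a. The list was drawn up with earlier results of these data known and is no independent evidence of its direction. Sample 1 also had the highest 3' over 5' ratios, and their part in these values was not tested. In RNA from a whole culture, fewer cells in division and less RNA per dividing cell cannot be told apart.

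The sequences before the starts of these genes were also read, as a description. A motif shared by the members of a chosen list is no support for the order of the samples. The CCAAT box, the site of the trimeric factor NF-Y, is a known feature of promoters active in G2 and M phase. RefSeq promoters (GRCm38.p6) were found for 11 of the 13 kept genes, and in 10 of the 11 the 250 bases before the first listed start held CCAAT or its reverse ATTGG, against 34.5% of 27025 genes of the table and 34.8% of the 933 kept B-only genes with a promoter. Kif20b was the exception. The cell cycle homology element TTTGAA (reverse TTCAAA) was in 3 of the 11, against 16.3% of all and 8.15% of the kept B-only genes. The E2F-like TTCCCGC (reverse GCGGGAA) was in 1, against 3.84% and 8.47%. None of these motifs contains another, both strands were searched, and a match is a description and not a bound site. Shown are 4 mitotic promoters, 5' to 3' on the strand of the gene and ending at the base before the start, with CCAAT or ATTGG in capitals. Cdca8 lies at chr4:124936918-124937167 (minus strand) with 3 matches, Arhgap11a at chr2:113848662-113848911 (minus) with 1, Kif18b at chr11:102925125-102925374 (minus) with 2, and Sgo2a at chr1:57985090-57985339 (plus) with 1, the farthest from its start.
Cdca8: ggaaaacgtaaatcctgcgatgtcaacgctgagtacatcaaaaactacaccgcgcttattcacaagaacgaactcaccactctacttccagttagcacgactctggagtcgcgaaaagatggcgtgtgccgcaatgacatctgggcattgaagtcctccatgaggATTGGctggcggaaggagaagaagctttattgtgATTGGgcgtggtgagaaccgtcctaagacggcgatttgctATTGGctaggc
Arhgap11a: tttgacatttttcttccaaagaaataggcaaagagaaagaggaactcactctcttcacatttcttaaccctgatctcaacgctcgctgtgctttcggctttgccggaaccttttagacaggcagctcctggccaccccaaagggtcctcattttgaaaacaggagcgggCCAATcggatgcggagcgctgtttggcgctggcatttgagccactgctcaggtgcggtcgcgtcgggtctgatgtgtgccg
Kif18b: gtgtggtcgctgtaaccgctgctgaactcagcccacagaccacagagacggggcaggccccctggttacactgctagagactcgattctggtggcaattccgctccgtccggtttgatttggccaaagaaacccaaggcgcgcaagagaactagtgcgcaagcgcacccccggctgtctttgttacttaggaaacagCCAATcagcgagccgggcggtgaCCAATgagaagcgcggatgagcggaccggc
Sgo2a: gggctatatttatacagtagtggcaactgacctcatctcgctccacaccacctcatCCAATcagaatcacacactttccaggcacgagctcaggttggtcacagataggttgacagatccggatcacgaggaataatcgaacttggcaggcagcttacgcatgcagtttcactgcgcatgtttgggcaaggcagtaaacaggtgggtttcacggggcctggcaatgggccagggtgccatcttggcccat

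Sample 5 was high in several genes of ribosome production and translation. Ribosome assembly needs small nucleolar RNAs, many of which are cut from introns of host transcripts named Snhg, together with the proteins that use them. Dkc1 (dyskerin), the pseudouridine synthase of box H/ACA particles, gave 5312 in sample 1, 7575 in sample 4 and 35129 in sample 5, 4.64-fold above the nearer sample. A second probe set gave 5549, 8671 and 24667, and the third, below the limits, was highest in sample 5 as well. The host transcript Snhg12 gave 11352, 9012 and 56562, and Snhg17, dimmer, 3083, 3360 and 9380. Another host, Snhg10, went the opposite way with 8741, 12523 and 3637, and Zfas1, also a host, gave 17776, 10022 and 21800. The long noncoding and host transcripts as a list had no such direction. Sample 5 was above the mean of the others in 7 of its 13 kept members, against 54.03% of all kept MOE430B genes. Wdr3, a protein of small subunit assembly, gave 5560, 3152 and 20229, with samples 1 and 4 not far from background. Mars1, the methionyl-tRNA synthetase, gave 6546, 10859 and 27400. The summed signal of the 12 measured fibroblast markers on MOE430A was lowest in sample 5, at 192487 against 416050 in sample 1 and 438843 in sample 4, and its part in the values of sample 5 was not tested. Of the 12 markers, 7 were lowest in sample 5, among them Col1a2 (183221, 161044 and 43699 in samples 1, 4 and 5), while Vim and Prrx1 were lowest in sample 1 and Pdgfra, Twist1 and Fap in sample 4.

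Of 34 translation and ribosome genes found on B alone, 9 were detected (26.5%) and 12 kept. Sample 5 was above the mean of the other samples in 11 of the 12, against 54.03% of all kept MOE430B genes, and the median difference was 0.54 on the log2 scale against 0.05. The exception was Gnl3l, a nucleolar GTPase, at 2955, 9197 and 4755. The translation list, like the other lists, was drawn up with earlier results of these data known. It is no independent evidence of its direction. Of the 12, 3 genes (Dkc1, Wdr3 and Mars1) were at least 2-fold above both other samples, while Utp14a (12602, 16662 and 24833) and Utp15 (7127, 7019 and 13310), of small subunit assembly, were less so. Sample 1 was below the mean of the others in 11 of the 12, all but Utp23 (8105, 6784 and 7482). Over all kept MOE430B genes, sample 1 was above that mean in 43.7%. Of the 12, 3 were below the limit in sample 1 and above it in the others. These 3 passed the mean filter through the other samples, so their direction is in part fixed by it. In the mitochondrial list, which shares the kept synthetases Lars2 and Wars2 with the translation list, sample 5 was above the mean of the others in 16 of 24 kept genes, with Tsfm, an elongation factor of the organelle, at 2173, 1932 and 10911 and the ribosomal protein Mrps10 at 4314, 5030 and 11776. Of the promoters of the kept translation genes, 10 were found, and 5 held CCAAT. None held the E-box CACGTG, which is its own reverse, against 6.05% of all and 9.65% of the kept B-only genes. Shown for contrast are those of Dkc1 at chrX:75095604-75095853 (plus strand), without a CCAAT match, and Wdr3 at chr3:100162408-100162657 (minus), with 1 match in capitals.
Dkc1: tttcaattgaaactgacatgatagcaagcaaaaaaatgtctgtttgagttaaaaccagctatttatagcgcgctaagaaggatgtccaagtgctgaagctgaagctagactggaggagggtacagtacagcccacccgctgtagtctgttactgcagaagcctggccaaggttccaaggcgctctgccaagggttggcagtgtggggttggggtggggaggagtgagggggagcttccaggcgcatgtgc
Wdr3: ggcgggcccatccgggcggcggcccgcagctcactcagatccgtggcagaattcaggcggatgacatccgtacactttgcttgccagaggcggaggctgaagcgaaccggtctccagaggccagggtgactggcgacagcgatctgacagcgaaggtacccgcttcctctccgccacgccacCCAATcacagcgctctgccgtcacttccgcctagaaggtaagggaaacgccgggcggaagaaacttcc

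**Figure D5:**
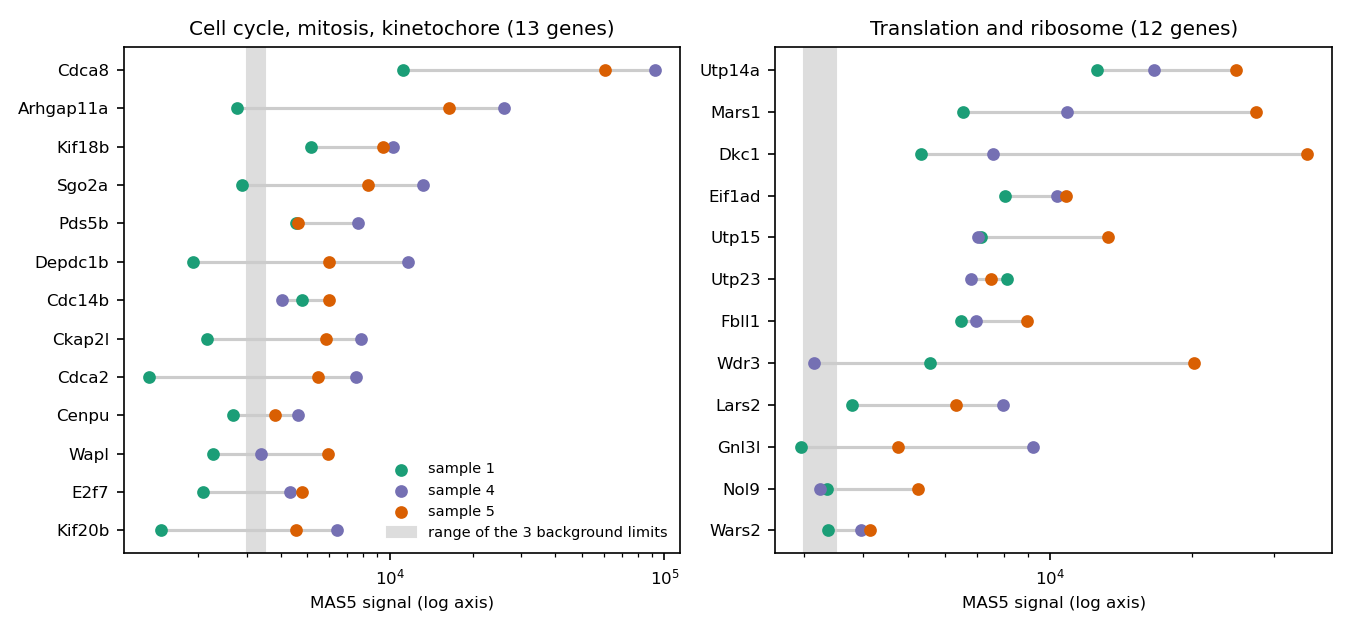
MAS5 signal in arbitrary units (log x axes) in samples 1, 4 and 5 for the 13 kept B-only genes of the cell cycle list (left, y axis) and the 12 of the translation list (right, y axis); grey bands span the 3 background limits. Sample 1 is the leftmost point in 12 of the 13 genes on the left and sample 5 the rightmost in 9 of the 12 on the right.

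Other genes high in sample 5 included 3 of the 55 kept members of the ubiquitin list, Btbd11, Dtx4 and Smurf1, against 48 of all 1162 kept genes. Btbd11, an ankyrin and BTB domain protein, gave 2738, 2727 and 24550 in samples 1, 4 and 5, below the limit in 2 samples and at least 6.98-fold higher in sample 5. That bound rests on 1 probe set: another gave 3584, 2804 and 9730, above the limit in sample 1 as well, and the third, dimmest one gave 152, 277 and 5729. Cgas, the sensor of cytosolic DNA, gave 7838, 9082 and 35372, and its second probe set, at 2497, 2790 and 4679, kept the order. Dtx4, a Deltex E3 ligase, gave 13784, 5718 and 36046, with the same order in its second probe set. Fmnl2, a formin that elongates actin filaments, gave 4879, 13726 and 27921, and Gchfr, the feedback regulator of GTP cyclohydrolase, 2922, 8421 and 22024. In Fmnl2 and Gchfr, sample 1 was 2-fold or more below both others and sample 5 as far above both.

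The genes low in sample 5 came from several pathways. Pik3ip1, a membrane inhibitor of PI3-kinase, gave 14685, 19731 and 3484 in samples 1, 4 and 5, 4.18-fold below the nearer sample. Lgr4, a receptor for R-spondins that raises Wnt signalling, gave 12413, 22051 and 3305, close to the limit in sample 5. Gulp1, an adaptor for engulfment, gave 23647, 14278 and 3972. Kdm6b, the H3K27 demethylase, gave 19253, 12906 and 5578, and its second detected probe set, at 10767, 11814 and 7703, was lowest in sample 5 too. The deacetylase Sirt6 gave 10249, 11088 and 3584. The interferon-linked genes Ifi27 (35810, 27321 and 13179) and Samd9l (11669, 10021 and 5596) and the RNA sensor Ddx58 (RIG-I; 8290, 10018 and 2542) were also lowest there. A second probe set of Ifi27 put sample 5 lowest and sample 4 highest. Of the 5 kept cytokine and innate immunity genes, these 3 were lowest in sample 5 and the other 2 in sample 4. The DNA sensor Cgas and the antiviral Zc3hav1, both above, were highest in sample 5 by their brightest probe sets.

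In sample 1, high genes were fewer. Adgrg2, an adhesion G protein-coupled receptor, gave 31554, 9344 and 5915, 3.38-fold above the nearer sample. Ptchd1, a patched-domain membrane protein, gave 30730, 12346 and 9063 by a probe set ending in _x_at. Its other probe sets were far dimmer and not detected, the brightest at 5078, 1487 and 1314. Each of them was highest in sample 1. Abca9, a lipid-linked ABC transporter, gave 12321, 5175 and 723, below background in sample 5. Low in sample 1 beside the mitotic genes were Nup205, a scaffold protein of the nuclear pore, at 2743, 14078 and 16657, and the mitochondrial folate enzyme Aldh1l2 at 4714, 14938 and 23620. In both, samples 4 and 5 were above their limits by a wide margin.

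Sample 4 stood apart least. Lrrc17, a leucine-rich repeat protein, gave 3406, 12047 and 1601 in samples 1, 4 and 5, above the limit in sample 4 only. Sertad4, a SERTA domain protein, gave 3245, 13428 and 5766. The small heat shock protein Hspb6, which binds actin-regulating partners in smooth muscle, gave 5245, 15148 and 6314, and the filamin A-binding Filip1l 5504, 14782 and 5185. With the matrix genes Emilin2 and Adamtsl3 above, these are 6 of the 10 genes highest in sample 4 by 2-fold or more. Lhfpl2, a tetraspan membrane protein, was the reverse at 10983, 3409 and 13007, but its second detected probe set was flat at 4857, 4788 and 4827. Filip1l and, above, Setd2, Ep300, Mcu, Ift43, Ift52, Wdr35, Traf3ip1, Snhg17, Mrps10, Utp15, Utp23, Sirt6, Ckap2l, Cdca2 and Kif20b were named after their values were seen, as were Gnl3l and Smurf1.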

How the data were processed

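Samples 1, 4 and 5 of 10T1/2 RNA were each read on 1 MOE430B array. The authors deposited MAS5 intensity values on a linear scale, 1 per probe set, per the submitters' processing notes; the trimmed mean (2% at each end) was nearly equal on each array as found in the values. Version and build were not given in the sources used here. Of 22511 probe sets without controls, 14661 named 1 gene in the platform annotation, 245 several and 7605 none; 14486 matched a RefSeq gene ID, which gave current symbols and gene types. Python 3.11.15 scripts (numpy 2.4.6, pandas 2.3.3, matplotlib 3.10.9) represented each gene by its brightest detected probe set (by mean log2 signal), or by its brightest one where none was detected. Detection, the mean filter and folds are defined where first used. No normalisation was added. Named genes were the 20 of highest mean, the 10 of widest range in each of 6 patterns, the 10 steadiest, and up to 4 per list. The members and lists were chosen with earlier results of these data known, and list patterns were corrected by symbol after values were seen. The alternatives tried concern the limit, the probe sets, the scaling, the pseudocount and the samples. The number of arrays limits the precision.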

Additional observations from a re-analysis of the deposited data

How the results depend on the processing

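No paired analysis was possible because the arrays that share sample numbers are different designs reading different probe sets of the same RNA, and no groups were compared. The count of 832 detected genes was 375 with a 99th percentile limit and 363 when the majority of a gene's probe sets had to pass; under the other planned limits, detection on 2 of 3 arrays, quantile normalisation and without _s_at and _x_at probe sets it was 587 to 1208, and without 1 sample 870 to 1049. The difference in detected share stayed below 0 in each alternative, from -4.12 to -0.26 points, and without 1 sample from -3.55 to -2.20. Between 15 and 24 of the 36 lists lay above the share of all genes. The 22 genes of 4-fold range became 14 with the median of the probe sets, 50 with log2(signal + 16), 49 with log2(signal + 64), and 3 to 18 without 1 sample. The limits tried for detection were also applied to these counts, after seeing the data: the 22 became 35 with the 90th percentile, 33 with the chemosensory, eye and germ cell limit, 18 with the limit from the other classes and 13 with the 99th percentile. The 99th percentile also gave 5 (main 10) for sample 1 above, 13 (main 25) for sample 1 below, 2 (main 4) for sample 4 below, 30 (main 48) for sample 5 above and 10 (main 20) for sample 5 below. Sample 1 above came to 16 with both the 90th percentile and the chemosensory limit and to 6 with the other classes, which gave 2 for sample 4 below. A lower limit raises fewer signals, so it widens ranges by construction, and unraised low signals widen ranges by construction. For genes outside both other samples, the median of the probe sets gave 4 (main 10) for sample 1 above, 2 (main 4) for sample 4 below, 23 (main 48) for sample 5 above and 7 (main 20) for sample 5 below. Pseudocounts of 16 and 64 gave 48 and 47 (main 25) for sample 1 below, 10 and 10 for sample 4 below, and 35 and 35 for sample 5 below. Leaving out _s_at and _x_at probe sets gave 2 for sample 4 below, and no filter gave 16 for sample 1 above. Without 1 sample, an alternative chosen after seeing the data in which the other 2 are compared directly, the counts were 28 to 53 for sample 1 above, 48 to 106 for sample 1 below, 48 for sample 4 above, 28 to 70 for sample 4 below, 70 to 106 for sample 5 above and 48 to 53 for sample 5 below. The cause of the other changes was not tested. Of the detected counts of single lists, 285 stayed within the factor allowed for counts and 111 moved; of the ranges of named genes, 253 moved by less than 1 SD and 22 by more. Signals near the limit carry no reliable order, and 3 arrays limit every statement on spread.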

Other observations

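Some genes of the same enzyme or step were picked, after their values were seen, because they share their highest or their lowest sample, so that sharing is no support for a link. Trmt6 and Trmt61a, which form the methyltransferase that modifies an adenosine of tRNA, were both highest in sample 5: Trmt6 gave 5881, 8542 and 18261 in samples 1, 4 and 5, and Trmt61a 9086, 5940 and 20845, so that their lowest samples differ. Twistnb, a subunit of RNA polymerase I, gave 10650, 10786 and 22814. Aldh1l2 and Mthfd1l, mitochondrial enzymes of folate metabolism, were both lowest in sample 1, and Mthfd1l gave 1434, 7623 and 9284, below background in sample 1. Rnaseh2a and Rnaseh2b, subunits of the RNase that removes ribonucleotides from DNA, were lowest in sample 1 as well, at 1755, 6392 and 6684 and at 8550, 16193 and 15564. These values are descriptions of 3 arrays.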
